A study of Homo sapiens with 18 samples.

Results

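SNAI1, SNAI2, SOX8, SOX9, SOX10, FOXD3 and ETS1 are 7 transcription factors that belong to the neural crest specifiers, the genes that give early crest cells their identity. Each was read from the probe sets whose platform annotation names that gene alone, and each had exactly 1 such probe set. They are 7 of 18417 genes with a probe set of their own, and all 7 passed the filter on dim genes that left 14142 genes for testing. RNA of H1 cells, a single line of human embryonic stem cells, was hybridised to 18 Affymetrix Human Gene 1.0 ST arrays. One state was pluripotent cells on Matrigel in mTeSR1 medium without feeders, and the other was embryoid bodies formed in AggreWell plates and kept in APEL medium for 6 days. Within each state, 3 arrays came from untransduced cells, 3 from cells given a lentivirus with a control shRNA and 3 from cells given a lentivirus with an shRNA against KBTBD8. Both shRNA groups therefore carry a lentivirus that the untransduced cells lack. Any other difference between untransduced and transduced arrays would coincide with the virus and could not be told apart from it. Separate cultures are not named for the arrays of a group, and p-values therefore measure only how these arrays scatter, part of which may be technical.

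The neural crest is a vertebrate cell population that arises at the border of the neural plate, leaves the epithelium and gives rise to peripheral neurons, glia, pigment cells and much of the facial skeleton. Border factors such as PAX3, MSX and TFAP2 proteins come first, and the specifiers follow. SNAIL proteins repress epithelial genes such as CDH1, SOXE proteins maintain the progenitors and direct glial, pigment and cartilage fates, and FOXD3 and ETS1 act with them in premigratory and cranial crest. None of these genes is restricted to the crest: FOXD3 is also active in pluripotent cells and ETS1 in endothelium and lymphocytes. KBTBD8 is an adaptor of the CUL3 ubiquitin ligase for which a role in crest specification has been described.

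Replicate 2 of the KBTBD8 shRNA in each state lay with the other state and was read apart. Over the tested genes, the pluripotent array labelled replicate 2 correlated at 0.990 with the mean of the embryoid body KBTBD8 shRNA arrays and at 0.908 with its own group. The embryoid body array labelled replicate 2 correlated at 0.993 with the pluripotent KBTBD8 shRNA arrays and at 0.914 with its own. The other 16 arrays each correlated best with their own group. Results below come from a limma model on these 16 arrays, with 2 arrays in each KBTBD8 shRNA group, and those that involve the shRNA are repeated on all 18 arrays as labelled. KBTBD8 itself fell by 1.79 ± 0.26 log2 units (SE) under its shRNA in pluripotent cells (limma adjusted p 2.8e-04) and differed by 0.01 ± 0.26 in embryoid bodies (adjusted p 1), where it was already low in every group. On 18 arrays these were -1.96 ± 0.25 and 0.12 ± 0.25 (adjusted p 0.00086 and 0.88). Array medians were 5.85 to 5.95 on untransduced arrays and 5.97 to 6.12 on transduced ones. Array values are log2 intensities, and levels are compared only within a gene. In these bulk samples, fewer cells of a type and less RNA per cell cannot be told apart.

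Of the 7 members, only FOXD3 had an entry in the RefSeq promoter table used (GRCh38.p14), and the sequence is shown because FOXD3 was among the 4 genes that fell together in KBTBD8 shRNA embryoid bodies. The 250 bases before its start, chr1:63322317-63322566 on the plus strand, are given in lower case, with capitals marking the single match to a SOX core motif.
FOXD3 promoter: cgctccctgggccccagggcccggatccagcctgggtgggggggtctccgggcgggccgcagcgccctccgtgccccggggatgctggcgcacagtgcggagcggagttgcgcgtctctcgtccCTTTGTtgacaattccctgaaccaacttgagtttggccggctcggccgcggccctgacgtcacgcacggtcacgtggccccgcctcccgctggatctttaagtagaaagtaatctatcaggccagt
This stretch is 67.6% G and C, against a median of 58.0% over all promoters in the table. A set of 7 short motifs was searched on both strands. The SOX core ACAAAG occurred once, on the reverse strand, starting 126 bases before the gene start. The same letters occur in 13.7% of 35116 promoters of that length. CAGGTG, the E-box bound by SNAIL proteins (17.5% of promoters), GCCNNNGGC, a TFAP2 motif (19.8%), and the second SOX core ACAATG (9.29%) had no match in this window. CCGGAAGT for ETS factors (3.42%), TGTTTAC for FOX factors (2.98%) and ATCAAAG for TCF and LEF factors (2.26%) had none either. A match is a description of letters, not a binding site.

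In embryoid bodies, 4 of the 7 specifiers were lower with the KBTBD8 shRNA than with the control shRNA, and none was higher. The differences, in log2 units with their SE, were -3.19 ± 0.12 for ETS1, -2.52 ± 0.12 for SNAI2, -1.48 ± 0.16 for FOXD3 and -1.45 ± 0.10 for SOX10 (limma adjusted p 1.9e-10, 2.6e-09, 1.4e-05 and 1.3e-07), which are 9.12-fold, 5.75-fold, 2.78-fold and 2.73-fold. The FOXD3 values with the KBTBD8 shRNA lay under the 40th percentile of their arrays, used here as the limit for dim genes, and GCRMA compresses low values, so its fold is not exact at that end. Over all genes tested 5.81% were called in either direction and 2.97% were called lower. ETS1 ranked 1, SNAI2 4, SOX10 18 and FOXD3 72 by p among the 14142 genes. SNAI1, SOX8 and SOX9 differed by 0.03 ± 0.17, 0.04 ± 0.16 and -0.15 ± 0.09 (adjusted p 0.97, 0.96 and 0.5). The median difference of the 7 genes was -1.45, against 0.00 for all genes.

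On all 18 arrays as labelled, the same 4 genes passed the test in embryoid bodies. There the differences were -2.63 ± 0.40 for ETS1, -3.31 ± 0.54 for SNAI2, -1.36 ± 0.16 for FOXD3 and -1.62 ± 0.16 for SOX10 (limma adjusted p 0.0016, 0.0027, 0.00012 and 2.1e-05), where 2.48% of genes were called. With 2 against 3 arrays an exact two-sided permutation test cannot go below 0.1, and it gave 0.1 for each of these 4 genes. The groups did not overlap for 5 of the 7 genes, the fifth being SOX9, and 35.2% of all genes did not overlap.

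**Figure D1:**
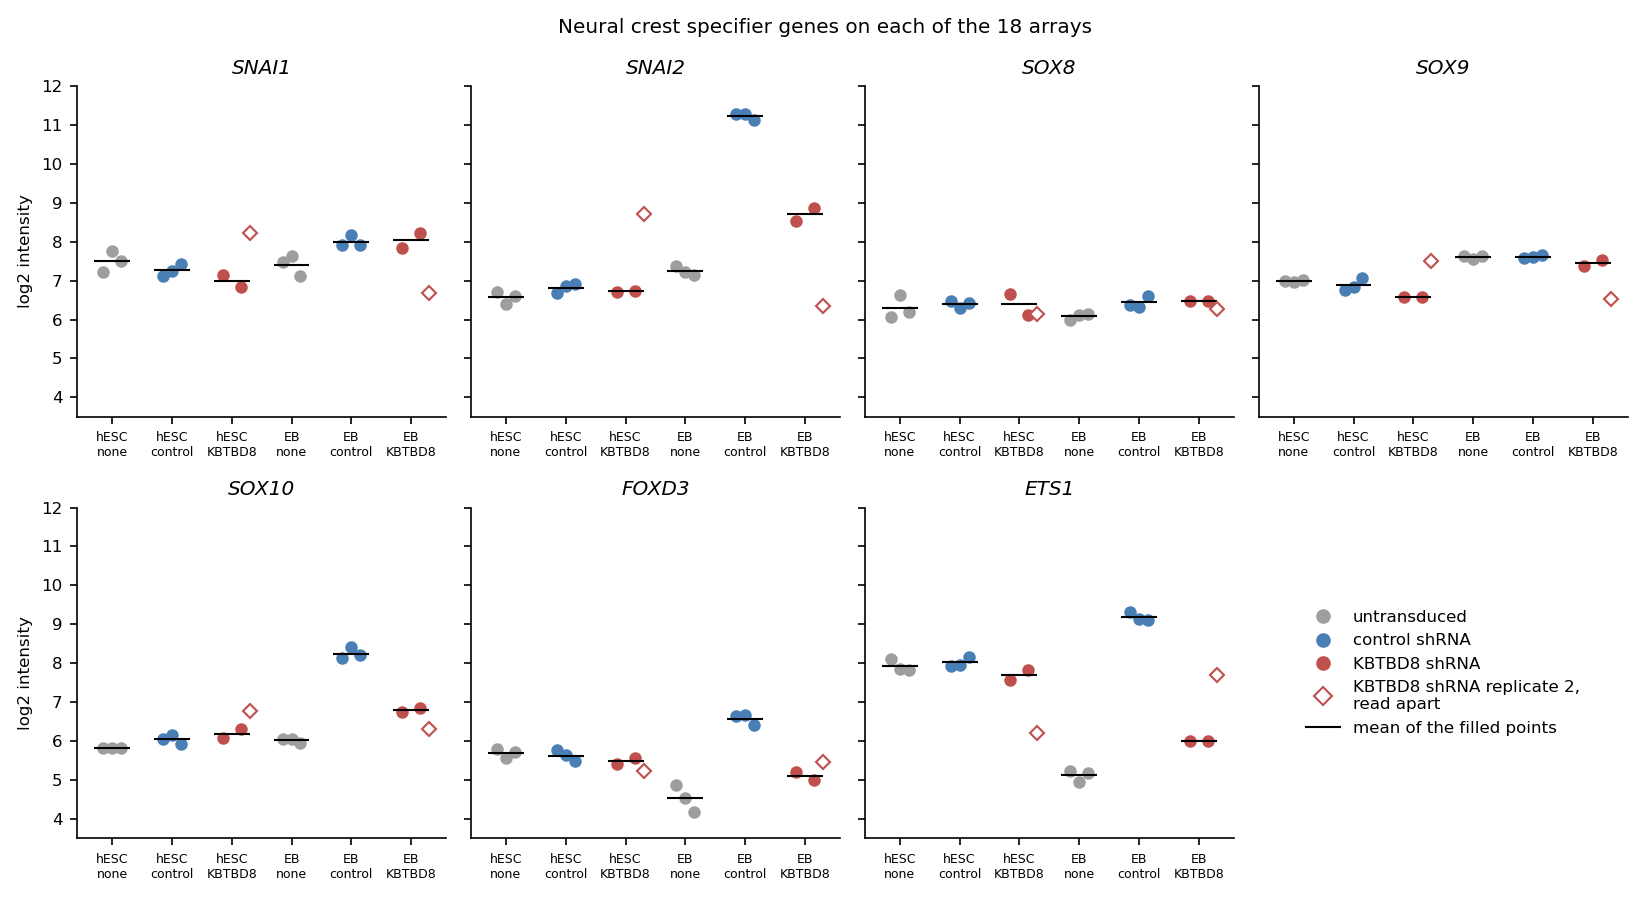
Log2 intensity of the 7 specifiers on each array (vertical axis) in the 6 groups (horizontal axis: hESC for pluripotent cells, EB for embryoid bodies; none for untransduced). Filled points are the 16 arrays fitted, bars their group means, open diamonds the 2 arrays read apart. SNAI2, SOX10, FOXD3 and ETS1 are highest in control shRNA embryoid bodies, and the diamonds lie nearer the filled KBTBD8 shRNA points of the other state for all genes but SOX8 in pluripotent cells.

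In pluripotent cells the KBTBD8 shRNA was accompanied by little difference in these genes. SOX9 alone passed the test, with a difference of -0.31 ± 0.09 (limma adjusted p 0.04), where 14.1% of all genes were called. ETS1 differed by -0.31 ± 0.12 (adjusted p 0.091) and the other 5 by between -0.27 and 0.15. The SOX9 call was lost on all 18 arrays, where its difference was 0.00 ± 0.24 (adjusted p 1, with 5.13% of genes called), in a fit of these groups alone (adjusted p 0.12), without the filter (adjusted p 0.063) and on leaving out any of 4 single arrays: control shRNA replicate 2 or 3 or KBTBD8 shRNA replicate 1 or 3, with differences from -0.33 to -0.21 and adjusted p from 0.059 to 0.19. The difference between the states was itself tested. The KBTBD8 shRNA difference in embryoid bodies minus that in pluripotent cells was -2.87 ± 0.17 for ETS1, -2.43 ± 0.17 for SNAI2, -1.60 ± 0.14 for SOX10 and -1.32 ± 0.22 for FOXD3. The limma adjusted p-values were 9.2e-08, 4.6e-07, 5.3e-06 and 0.0013, and 9.87% of genes were called in this test, 6.13% in that direction. On 18 arrays the tests for SNAI2, SOX10 and FOXD3 passed again (adjusted p 0.012, 3.0e-04 and 0.012) and that for ETS1 did not (-1.81 ± 0.56, adjusted p 0.086), with 3.67% of genes called.

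The specifiers were also higher in control shRNA embryoid bodies than in untransduced ones. ETS1 rose by 4.07 ± 0.11, SNAI2 by 3.98 ± 0.11, SOX10 by 2.22 ± 0.09 and FOXD3 by 2.05 ± 0.14 (limma adjusted p 3.9e-13, 5.5e-13, 4e-11 and 1.6e-08), and SNAI1 and SOX8 rose by 0.59 ± 0.16 and 0.37 ± 0.14 (adjusted p 0.0061 and 0.048). That is 6 of 7 higher, where 44.9% of all genes were called and 24.5% were called higher. SOX9 differed by 0.00 ± 0.08 (adjusted p 0.98). In untransduced embryoid bodies ETS1 and FOXD3 lay under the 40th percentile on every array, so the sizes of their differences from that group are not exact either. The SOX8 call was lost on leaving out any 1 of the 6 arrays compared (adjusted p 0.057 to 0.17) and after quantile normalization (0.20, adjusted p 0.27). On 18 arrays SNAI1 and SOX8 did not pass (adjusted p 0.23 and 0.092) and the other 4 did, where 27.1% of genes were called. The array medians of the 2 groups do not overlap, as given above, and after quantile normalization ETS1, SNAI2, SOX10 and FOXD3 were higher by 3.99, 3.99, 2.12 and 1.91. In pluripotent cells 0 of 7 genes were called between the same treatments by limma, where 29.1% of all genes were called. At an unadjusted p under 0.05 there were 2, a cut that 5771 of the 14142 genes tested passed. On 18 arrays 0 of the 7 passed by either measure, with 12.1% of genes called.

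Compared with untransduced embryoid bodies, KBTBD8 shRNA embryoid bodies also had higher levels of 5 of the 7 genes. The comparison was added after the values were seen, and 41.2% of all genes were called in it, 22.5% of all genes as higher. SNAI2 was higher by 1.46 ± 0.12, ETS1 by 0.88 ± 0.12, SOX10 by 0.77 ± 0.10, SNAI1 by 0.63 ± 0.17 and FOXD3 by 0.57 ± 0.16 (limma adjusted p 2.3e-07, 3.3e-05, 2.5e-05, 0.0096 and 0.0085). SOX8 differed by 0.40 ± 0.16 (adjusted p 0.054) and SOX9 by -0.15 ± 0.09 (adjusted p 0.21). On 18 arrays 3 of the 7 passed, SOX10 (0.61), FOXD3 (0.69) and ETS1 (1.45), where 31.7% of all genes did, and SNAI2 did not (0.67 ± 0.54, adjusted p 0.36). Leaving out KBTBD8 shRNA replicate 1 lost the FOXD3 call (0.48, adjusted p 0.093), and leaving out replicate 3 lost the SNAI1 call (0.43, adjusted p 0.13). The 3 comparisons among embryoid bodies share arrays pairwise and are not independent of each other.

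**Figure D2:**
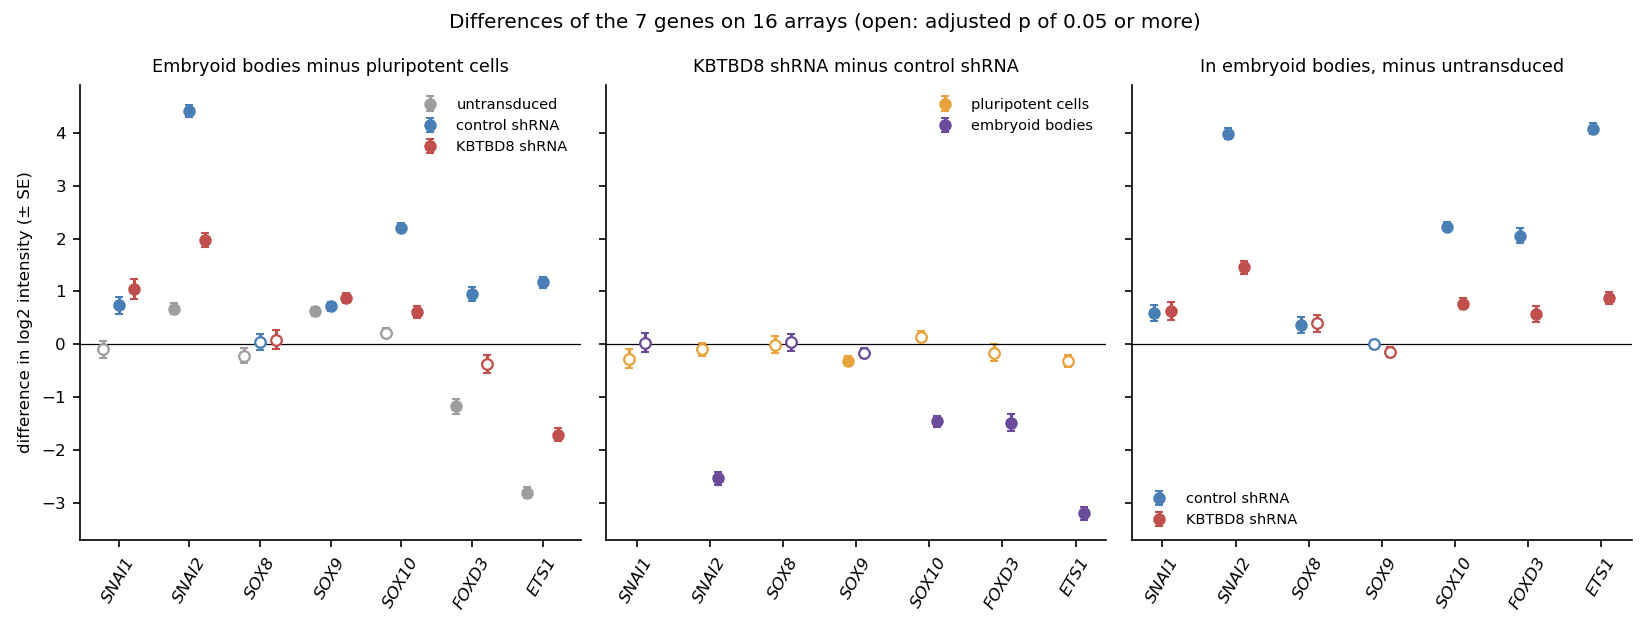
Differences in log2 intensity (vertical axis, with SE) of the 7 genes (horizontal axis) on 16 arrays, between states (left), between the shRNAs (middle) and between each shRNA and untransduced embryoid bodies (right). Filled points have an adjusted p under 0.05. ETS1 lies at -3.19 and SNAI2 at -2.52 in the middle panel for embryoid bodies, and both lie near 4 for the control shRNA in the right panel.

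Differentiation without a virus moved the genes in both directions. In untransduced cells SNAI2 and SOX9 rose by 0.68 ± 0.11 and 0.62 ± 0.08 from the pluripotent state to embryoid bodies, while ETS1 and FOXD3 fell, with differences of -2.80 ± 0.11 and -1.17 ± 0.14 (limma adjusted p 6.6e-05, 1.1e-05, 3.5e-12 and 3.2e-06). That is 4 of 7 called, where 52.3% of all genes were called. With the control shRNA, 6 of 7 rose and none fell (48.4% of all genes called, 23.2% higher). SNAI2 rose by 4.41 ± 0.11, SOX10 by 2.21 ± 0.09, ETS1 by 1.17 ± 0.11, FOXD3 by 0.95 ± 0.14, SNAI1 by 0.74 ± 0.16 and SOX9 by 0.72 ± 0.08, with limma adjusted p from 6.7e-14 to 0.00093. With the KBTBD8 shRNA, SNAI2, SNAI1, SOX9 and SOX10 rose by 1.98 ± 0.13, 1.04 ± 0.19, 0.88 ± 0.10 and 0.61 ± 0.11, and ETS1 fell by 1.70 ± 0.13 (limma adjusted p 9.6e-09, 0.00042, 5.1e-06, 0.00038 and 4.1e-08, 5 of 7 called, 38.5% of all genes). FOXD3 differed by -0.37 ± 0.17 (adjusted p 0.1).

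The fit of all 18 arrays changed these counts. In the KBTBD8 shRNA arrays as labelled, limma called 0 of 7 members and 0% of genes between the states. The differences there were -0.64 ± 0.40 for ETS1 and 0.53 ± 0.54 for SNAI2. At an unadjusted p under 0.05 there were 0 members and 763 genes. In untransduced cells 2 of 7, ETS1 and FOXD3, passed on 18 arrays (38.6% of all genes), and with the control shRNA 5 of 7, all but SNAI1 and SOX8 (33.9%). The change with differentiation differed between control shRNA and untransduced cells for 5 of 7 genes, where 16.9% of all genes were called and 8.24% were called in that direction. It was larger by 3.97 ± 0.15 for ETS1, 3.73 ± 0.15 for SNAI2, 2.12 ± 0.20 for FOXD3, 1.996 ± 0.13 for SOX10 and 0.83 ± 0.22 for SNAI1 (limma adjusted p 1.2e-10, 3.2e-10, 1.6e-06, 2.5e-08 and 0.016). On 18 arrays SNAI1 no longer passed (adjusted p 0.44) and the other 4 did, with 5.24% of genes called.

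SNAI2, or SLUG, is the zinc finger repressor most used to mark premigratory crest. It read 6.71, 6.39 and 6.61 on untransduced pluripotent arrays, 6.68, 6.87 and 6.91 with the control shRNA, and 6.71 and 6.74 with the KBTBD8 shRNA. In embryoid bodies it read 7.38, 7.21 and 7.15 without virus, 11.28, 11.28 and 11.12 with the control shRNA, and 8.53 and 8.88 with the KBTBD8 shRNA. All 8 pluripotent values lay below every embryoid body value, and the 3 embryoid body groups did not overlap with each other, with the control shRNA highest and untransduced lowest. The arrays read apart gave 8.72 under the pluripotent label, within the range of the embryoid body KBTBD8 shRNA arrays, and 6.34 under the embryoid body label, below all others.

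SNAI1, the SNAIL repressor of early epithelial to mesenchymal transition, varied less. Pluripotent arrays read 7.23, 7.77 and 7.51 without virus, 7.12, 7.24 and 7.43 with the control shRNA, and 7.14 and 6.85 with the KBTBD8 shRNA. Embryoid bodies read 7.48, 7.62 and 7.13 without virus, 7.91, 8.17 and 7.92 with the control shRNA, and 7.84 and 8.23 with the KBTBD8 shRNA. The 2 transduced embryoid body groups overlapped with each other and lay above all other fitted arrays, and untransduced embryoid bodies overlapped with untransduced pluripotent cells. Under the pluripotent and embryoid body labels, the arrays read apart gave 8.23 and 6.67.

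SOX10, the SOXE factor kept in glial and pigment lineages, was the second gene with a separate level in each transduced embryoid body group. It read 5.81, 5.82 and 5.81 on untransduced pluripotent arrays, 6.05, 6.15 and 5.93 with the control shRNA, and 6.08 and 6.30 with the KBTBD8 shRNA. In embryoid bodies it read 6.06, 6.06 and 5.95 without virus, 8.13, 8.40 and 8.21 with the control shRNA, and 6.75 and 6.84 with the KBTBD8 shRNA. Untransduced embryoid bodies overlapped with control shRNA pluripotent cells, whereas both transduced embryoid body groups lay above every pluripotent array fitted. The arrays read apart gave 6.76 under the pluripotent label and 6.30 under the embryoid body label.

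SOX9, which precedes SOX10 in the crest and drives cartilage formation, was higher in embryoid bodies under every treatment. Pluripotent arrays read 6.98, 6.96 and 7.01 without virus, 6.75, 6.83 and 7.07 with the control shRNA, and 6.58 and 6.58 with the KBTBD8 shRNA. Embryoid bodies read 7.64, 7.54 and 7.63, then 7.58, 7.60 and 7.65, then 7.38 and 7.53 in the same order. All embryoid body values lay above all pluripotent ones, and within each state the KBTBD8 shRNA values lay below those of both other treatments, which overlapped with each other. Those read apart gave 7.51 and 6.52 under the pluripotent and embryoid body labels.

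SOX8, the third SOXE gene, showed no separation by state. Its 16 values ran from 5.99, in an untransduced embryoid body array, to 6.66, in a pluripotent KBTBD8 shRNA array, and its group means spanned 0.40. Ordered by mean, untransduced embryoid bodies were lowest (6.08 ± 0.07, SD, n = 3) and KBTBD8 shRNA embryoid bodies highest (6.48 ± 0.01, SD, n = 2). Each group overlapped with its neighbours in that order. Both arrays read apart, at 6.14 and 6.27, lay within the range of the others.

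FOXD3, a forkhead factor of premigratory crest and of pluripotent cells, was the member nearest the low end of the arrays, under the 40th percentile on 6 of 16. It read 5.81, 5.56 and 5.72 on untransduced pluripotent arrays, 5.76, 5.63 and 5.49 with the control shRNA, and 5.40 and 5.55 with the KBTBD8 shRNA. In embryoid bodies it read 4.86, 4.55 and 4.17 without virus, 6.65, 6.67 and 6.41 with the control shRNA, and 5.20 and 5.01 with the KBTBD8 shRNA. The control shRNA embryoid bodies lay above every other array and the other 2 embryoid body groups below every pluripotent array fitted, while the 3 pluripotent groups overlapped as neighbours. The arrays read apart gave 5.24 and 5.46.

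ETS1, an ETS-domain factor of cranial crest, changed in both directions with differentiation, by treatment. It read 8.10, 7.85 and 7.81 on untransduced pluripotent arrays, 7.93, 7.96 and 8.17 with the control shRNA, and 7.58 and 7.83 with the KBTBD8 shRNA. In embryoid bodies it read 5.23, 4.96 and 5.18 without virus, 9.31, 9.14 and 9.12 with the control shRNA, and 6.00 and 6.00 with the KBTBD8 shRNA. The 3 pluripotent groups overlapped as neighbours and stood between the control shRNA embryoid bodies above and both other embryoid body groups below. The arrays read apart gave 6.21 under the pluripotent label and 7.69 under the embryoid body label. Over the 7 genes, the first of these arrays was nearer to the other state's KBTBD8 shRNA mean for 6, all but SOX8, and the second for 7.

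The wider crest network was described with lists drawn from general knowledge of these pathways. Under the KBTBD8 shRNA in embryoid bodies, genes of the neural plate border moved both ways: of 10 tested, 3 fell and 2 rose relative to the control shRNA, where 5.81% of all genes were called and 2.97% fell. The differences were -2.14 ± 0.21 for TFAP2B, -1.95 ± 0.12 for PAX3, -0.86 ± 0.19 for TFAP2A and 2.22 ± 0.14 for DLX5, a homeobox gene of the border (limma adjusted p 7.6e-06, 6.1e-08, 0.0093 and 7.5e-08). Of 12 other crest regulators, 2 fell and 4 rose, among them NR2F1, an orphan nuclear receptor, which fell by 2.50 ± 0.16, and PRDM1 and MYB, which rose by 0.92 ± 0.11 and 0.71 ± 0.12. Of 10 effectors and derivative genes, 5 fell and none rose. These included the glial calcium-binding protein gene S100B (-1.81 ± 0.18), the neuregulin receptor ERBB3 (-1.15 ± 0.12), the endothelin receptor EDNRB (-1.05 ± 0.14) and the nerve growth factor receptor NGFR (-0.55 ± 0.14). The list medians were -0.26, 0.25 and -0.27, against 0.00 for all genes.

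Targets and relatives of the specifiers were listed too. Of 11 epithelial genes known as SNAIL-repressed or epithelial markers, 6 rose and none fell in KBTBD8 shRNA relative to control shRNA embryoid bodies, with a median of 0.40. Over all genes tested 5.81% were called in this comparison, 2.97% of all genes as lower, and the median was 0.00. E-cadherin (CDH1) rose by 0.72 ± 0.15, KRT18 by 0.63 ± 0.13, desmoplakin (DSP) by 0.55 ± 0.14 and CLDN3 by 0.47 ± 0.12 (adjusted p 0.0059, 0.0056, 0.025 and 0.024). Of 9 mesenchymal genes, 4 fell and 1 rose: the differences were -1.14 ± 0.12 for ZEB2, -0.998 ± 0.13 for vimentin (VIM), -0.52 ± 0.11 for ZEB1 and 0.79 ± 0.14 for tenascin C (TNC). Of 7 SOX9 cartilage targets only HAPLN1 was called, higher by 1.44 ± 0.18 (-0.12 on 18 arrays, adjusted p 0.98). Of 7 tested family relatives (SNAI3, SCRT1, SCRT2, SOX4, SOX11, ETS2 and ERG) limma called 0, with 3 at an unadjusted p under 0.05. That cut was passed by 2292 of the 14142 genes tested.

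On all 18 arrays fewer list members passed in this comparison, and 2.48% of all genes did. The counts of higher and lower genes were 0 and 1 for the border, 1 and 1 for other regulators, 0 and 2 for effectors, 2 and 0 for epithelial genes, and 0 and 1 for mesenchymal genes. For the cartilage targets and for the relatives limma called 0, with 2 of each at an unadjusted p under 0.05. That cut was passed by 1885 of 14209 genes. PAX3, NR2F1, S100B, NGFR, VIM and CDH1 were among those that passed both times, and DLX5 was not (0.61, adjusted p 0.88 on 18 arrays).

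**Figure D3:**
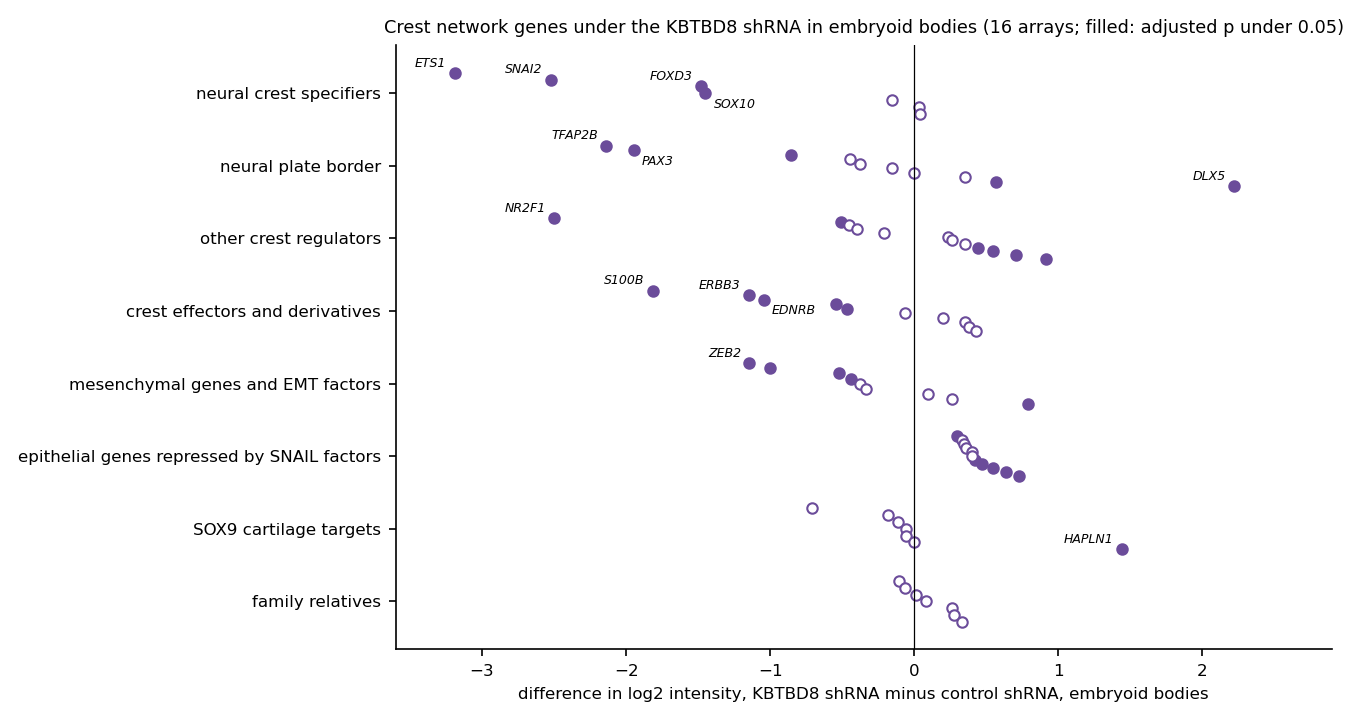
Difference in log2 intensity between KBTBD8 shRNA and control shRNA embryoid bodies (horizontal axis, 16 arrays) for each tested gene of the specifiers and 7 network lists (vertical axis). Filled points have an adjusted p under 0.05, and called genes that differ by more than 1 are named. The effectors called lie to the left of 0 and the epithelial genes called to the right, while border genes lie on both sides.

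Border genes and epithelial genes were both higher in control shRNA embryoid bodies than in untransduced ones. Of 10 border genes 9 rose, where 44.9% of all genes were called and 24.5% were called higher, with TFAP2B at 4.95 ± 0.19, PAX3 at 4.55 ± 0.11, TFAP2C at 3.77 ± 0.13 and TFAP2A at 3.44 ± 0.17. PAX3, PAX7, ZIC1 and TFAP2C lay under the 40th percentile on every untransduced embryoid body array, so the sizes of their differences are not exact. All 11 epithelial genes tested rose, CDH1 by 3.48 ± 0.13 and EPCAM by 2.75 ± 0.28, in the same samples in which SNAI2 rose by 3.98. Of 10 effectors 5 rose and 2 fell, S100B rising by 2.54 ± 0.17 and ERBB3 by 2.01 ± 0.10 and FABP7 falling by 1.59 ± 0.17. The S100B size is not exact either, since S100B lay under the 40th percentile on every untransduced embryoid body array. Of 9 mesenchymal genes 4 rose and 2 fell, the largest difference being ZEB1, which fell by 1.68 ± 0.10. The list medians were 2.17, 1.04, 0.51 and 0.25, against 0.03 for all genes. The 7 effectors and 6 mesenchymal genes called are nearer to the share of all genes than the border and epithelial genes are. On 18 arrays, where 27.1% of all genes were called, the counts higher and lower were 7 and 0, 9 and 0, 4 and 2, and 2 and 1.

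Markers of other cell types also differed in embryoid bodies, some in the direction of the specifiers and some in the opposite one, and their part in the results was not tested. For the KBTBD8 shRNA against the control shRNA, 7 of 10 neural plate and forebrain genes rose and 1 fell, against 5.81% of all genes called, with SIX3 higher by 3.23 ± 0.15, HESX1 by 1.85 ± 0.18 and LHX2 by 1.62 ± 0.17. The log2 of that list's summed intensity was 12.21 to 12.22 with the control shRNA, 12.68 to 12.91 with the KBTBD8 shRNA and 13.06 to 13.11 without virus. HESX1 lay under the 40th percentile on every control shRNA embryoid body array, so the size of its difference is not exact. None of SIX3, HESX1 and LHX2 passed on 18 arrays (1.65, 1.17 and 0.60, limma adjusted p 0.6, 0.31 and 0.77). SOX2 did, higher by 0.49 (adjusted p 0.048). Neuronal genes fell (4 of 5 tested, summed level 9.34 to 9.44 against 8.48 to 8.63), as did 3 of 7 endoderm genes, AFP, APOA2 and TTR (9.70 to 9.87 against 8.14 to 8.28). AFP and TTR lay under the 40th percentile on every fitted KBTBD8 shRNA embryoid body array. Of surface ectoderm genes, which share CDH1 and EPCAM with the epithelial list, 3 of 5 tested rose (11.10 to 11.33 against 11.73 to 11.77). They were CDH1, GRHL2 and GRHL3. KRT14 was not called (0.27 ± 0.20, limma adjusted p 0.61), and KRT5 and KRT15 lay under the 40th percentile on every fitted array. The list summed to 11.62 to 11.94 in pluripotent cells, so its level is not particular to surface ectoderm. Of 10 pluripotency genes 3 rose (12.42 to 12.45 against 12.53 to 12.68). Among them GDF3 lay under the 40th percentile on every fitted array of both groups. Without virus the summed levels in embryoid bodies were 8.45 to 8.61 for neuronal, 7.80 to 7.83 for endoderm, 8.23 to 8.94 for surface ectoderm and 11.74 to 11.86 for pluripotency genes. Between control shRNA and untransduced embryoid bodies, where 44.9% of all genes were called, 9 of 10 forebrain genes fell. In that comparison 4 of 7 endoderm, 4 of 5 neuronal, 4 of 5 surface ectoderm, 4 of 5 mesoderm and 7 of 10 pluripotency genes rose, and 1 pluripotency gene fell. Of the forebrain genes that fell there, LHX2, SOX2, RAX and SIX6 passed again on 18 arrays (limma adjusted p 0.007, 3e-05, 0.0025 and 0.03). PAX6, SIX3, SOX1, HESX1 and FEZF1 did not (adjusted p 0.68, 0.11, 0.081, 0.075 and 0.38).

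Endothelial markers bear on ETS1, which endothelium also expresses. Of 5 endothelium and blood genes tested, limma called 0 between the shRNAs in embryoid bodies, with 2 at an unadjusted p under 0.05. That cut was passed by 2292 of the 14142 genes tested. Of the 10 listed, PECAM1, CDH5, TIE1, EMCN and ESAM lay under the 40th percentile on every fitted array of every group. KDR, a receptor for VEGF, lay under it on every array of untransduced embryoid bodies but of no other group. The size of the KDR difference from untransduced embryoid bodies is therefore not exact. In embryoid bodies KDR was higher by 2.22 ± 0.15 with the control shRNA than without virus (limma adjusted p 9.6e-09, and 0.01 on 18 arrays), the comparison in which ETS1 rose by 4.07, and it differed by -0.03 ± 0.16 between the shRNAs (adjusted p 0.97). Its part in the ETS1 result was not tested. In embryoid bodies the log2 of the summed intensity of the 10 listed genes was 8.81 to 8.86 with the control shRNA, 8.90 to 8.92 with the KBTBD8 shRNA and 8.27 to 8.43 without virus. In pluripotent cells it was higher, at 10.10 to 10.14, 9.96 to 10.01 and 9.29 to 9.73 in the same order. Of 5 primitive streak and mesoderm genes limma also called 0 between the shRNAs, with 0 at an unadjusted p under 0.05 (summed level 8.69 to 8.75 against 8.71 to 8.94). On 18 arrays, where 2.48% of all genes were called, the counts higher and lower between the shRNAs were 1 and 0 for forebrain, 0 and 4 for neuronal, 0 and 3 for endoderm, 2 and 0 for surface ectoderm and 0 and 0 for pluripotency, endothelial and mesoderm genes.

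The genes with the most similar profiles were found for each specifier whose 6 group means spanned more than 1 log2 unit. Likeness was the root mean square distance between profiles over the 6 groups of the 16 arrays, each centred on its own mean. Nearest to SNAI2 were CDH9 (0.32), PAX3 (0.37) and DKK1 (0.43). In the pluripotent groups and untransduced embryoid bodies their means were 3.91 to 4.37, 4.44 to 4.87 and 3.44 to 4.46. Those values lie near the low end of the arrays, where GCRMA compresses values, so the likeness in those groups is not exact. SOX10 was nearest to PDGFRA (0.13), S100B (0.14) and COLEC12 (0.16), and FOXD3 to PRKCA (0.13), CACHD1 (0.23) and ERBB3 (0.26). Nearest to ETS1 were NRP2 (0.64), ERBB3 (0.75) and DOK5 (0.77), with FOXD3 at rank 6 (0.78). SOX9 was nearest to VGLL4 (0.04), RIT1 (0.07) and CHD7 (0.07), and SNAI1 to SNORA50A (0.11), NFE2 (0.12) and GPER1 (0.12). Small distances are easier to reach for profiles that vary little, so distances are not compared between specifiers of different span.

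**Figure D4:**
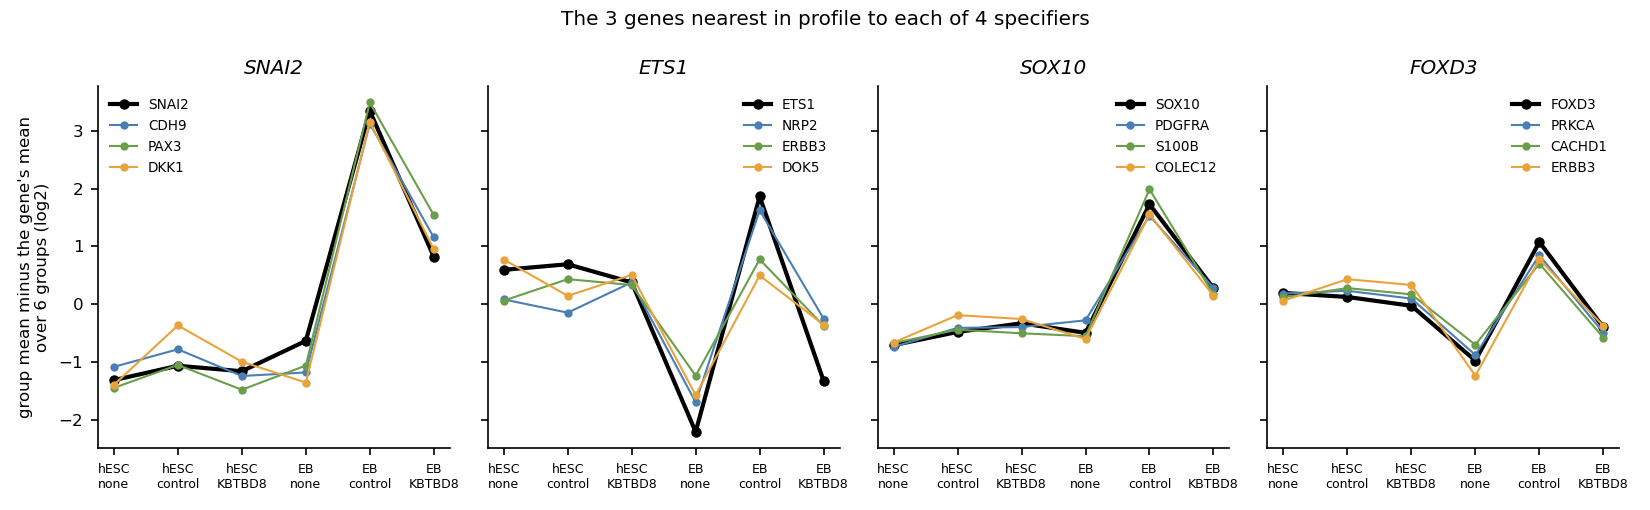
Group means of SNAI2, ETS1, SOX10 and FOXD3 (black) and their 3 nearest genes (colours), each minus its own mean over the 6 groups, in log2 units (vertical axis) across the 6 groups (horizontal axis), on 16 arrays. Each of the 4 specifiers peaks in control shRNA embryoid bodies, and the ETS1 neighbours fall less in untransduced embryoid bodies than ETS1 itself.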

How the data were processed

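GCRMA made the 1 table of log2 intensities that the authors deposited (submitters' processing notes, no version named). The log base is taken from the method and the range of the values, and whether the arrays were normalized together is not given in the sources used here. GCRMA subtracts background by probe sequence, so low values are compressed. RNA was isolated with RNeasy columns and labelled by a NuGEN protocol, per the labels' protocols.

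Of 33297 probe sets, 19460 carry 1 gene symbol, 1754 several and 12083 none. The probe set with the highest mean stood for a gene. Testing required a value over the 40th percentile of its array on 3 or more arrays, leaving 14142 genes on 16 arrays and 14209 on 18. One limma model (version 3.58.1, R 4.3.3) with a mean per group gave differences, SE and p adjusted by Benjamini and Hochberg over all genes tested, with 10 residual degrees of freedom (12 on 18 arrays). The words rose and fell are kept for an adjusted p under 0.05. The procedure was tested on simulated data. The number of arrays limits the precision.

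The members, lists and comparisons were chosen with earlier results of these data known, and the comparison of KBTBD8 shRNA with untransduced embryoid bodies was added after seeing the values. Named were all 7 members, KBTBD8, the 2 to 4 called genes with the largest differences in each list, and the 3 nearest profiles of members spanning over 1 log2 unit. Genes named beyond this rule were chosen after their values were seen. Deviations of same-numbered arrays from their group means correlated at -0.38 to 0.43 over 36 pairs, 12 of them over 0.1. Taken over all groups, the numbers therefore show no steady pairing. Among pluripotent control shRNA, pluripotent KBTBD8 shRNA and embryoid body KBTBD8 shRNA arrays, same-numbered pairs correlated at 0.32 to 0.43. A pairing among those groups is possible, and the main fit does not model it. Alternatives were all 18 arrays, a replicate block, only the groups compared, no filter, the mean of probe sets, quantile normalization and leaving out each array. Figures were drawn with matplotlib 3.10.9.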

Additional observations from a re-analysis of the deposited data

Results flagged for a closer look

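The KBTBD8 shRNA difference was not the same in embryoid bodies and pluripotent cells for 4 specifiers, by limma's test of the difference between the states on 16 arrays. The differences of differences were -2.87 for ETS1, -2.43 for SNAI2, -1.60 for SOX10 and -1.32 for FOXD3. On 18 arrays they were -1.81, -3.88, -1.96 and -1.13, and the one for ETS1 did not pass (adjusted p 0.086).

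The change from pluripotent cells to embryoid bodies differed between control shRNA and untransduced cells for 5 specifiers. It was larger with the control shRNA by 3.97 for ETS1, 3.73 for SNAI2, 2.12 for FOXD3, 1.996 for SOX10 and 0.83 for SNAI1. FOXD3 and ETS1 fell with differentiation in untransduced cells and rose with the control shRNA.

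The pluripotent KBTBD8 shRNA array labelled replicate 2, which the comparisons left out, was above every pluripotent control shRNA array for 4 specifiers. It read 8.23 for SNAI1, 8.72 for SNAI2, 7.51 for SOX9 and 6.76 for SOX10.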

How the results depend on the processing

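Of 872 values of single specifiers recomputed under another setting, 811 kept their direction and their side of the threshold, 31 lost the call, 3 gained it and 27 changed sign. None of the 27 was past the threshold under the alternative, and the 4 calls in KBTBD8 shRNA embryoid bodies held under every alternative run. All 18 arrays as labelled changed most, and there the spread within both KBTBD8 shRNA groups enters every test. Specifiers called numbered 2 between states in untransduced cells, 0 between states with the KBTBD8 shRNA, 0 between the shRNAs in pluripotent cells and 3 between KBTBD8 shRNA and untransduced embryoid bodies. Genes called numbered 0 between states with the KBTBD8 shRNA, 729 and 352 between the shRNAs in pluripotent cells and embryoid bodies, 1713 and 3850 between control shRNA and untransduced cells in those states, 521 for the difference of the shRNA between states and 744 for the difference of differentiation. Main counts were 5444, 1999, 821, 4112, 6346, 1396 and 2391. Signs changed there, none called, for the shRNA difference in pluripotent cells of SNAI1 (0.14), SNAI2 (0.57) and SOX9 (0.0035), in embryoid bodies of SNAI1 (-0.42) and SOX8 (-0.035), and between states of SNAI1 (-0.56) and SOX9 (-0.47).

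With a replicate block, SOX8 between the shRNAs in pluripotent cells became 0.010 and the SOX8 call between control shRNA and untransduced embryoid bodies was lost (adjusted p 0.064). No other member call changed, and genes called between the shRNAs in embryoid bodies numbered 760. With only the groups compared, 0 specifiers were called between the shRNAs in pluripotent cells and 2611 genes between control shRNA and untransduced pluripotent cells. Without the filter 0 specifiers, and after quantile normalization 2, SOX9 and ETS1 (-0.33, adjusted p 0.047), were called between the shRNAs in pluripotent cells. Quantile normalization also gave 0.0058 for SOX8 there, and -0.020 for SOX9 between control shRNA and untransduced embryoid bodies.

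Leaving out each array in turn moved genes called between the shRNAs from 720 to 1511 in pluripotent cells (lowest without KBTBD8 shRNA replicate 3) and from 450 to 597 in embryoid bodies (lowest without KBTBD8 shRNA replicate 3). The counts ran from 3567 (without KBTBD8 shRNA replicate 1) to 5181 between KBTBD8 shRNA and untransduced embryoid bodies, and from 731 (without pluripotent KBTBD8 shRNA replicate 3) to 1194 for the shRNA difference between states. Specifiers called between the shRNAs in pluripotent cells ran from 0 to 1. Where a KBTBD8 shRNA group kept 1 array, that array was assumed to vary like the other groups. Ranges that crossed 0, none called, were -0.23 to 0.048 for SNAI1 between untransduced states, and for SOX8 -0.040 to 0.10 between control shRNA states and -0.17 to 0.36 between KBTBD8 shRNA states. Between the shRNAs they were -0.27 to 0.26 for SOX8 in pluripotent cells, -0.16 to 0.23 for SNAI1 and -0.018 to 0.12 for SOX8 in embryoid bodies, and -0.22 to 0.31 for SOX8 for the difference between states. Between control shRNA and untransduced cells they were -0.0045 to 0.28 for SOX8 in pluripotent cells and -0.029 to 0.020 for SOX9 in embryoid bodies. The causes were not tested.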
